A study of Mus musculus with 8 samples.

Results

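The heat shock and chaperone genes described here are 10 genes taken by name from the deposited count table: *Hspa1a*, *Hspa1b*, *Hsp90aa1*, *Hsph1*, *Dnajb1* and *Hspb1*, grouped here as inducible, and *Hspa8*, *Hsp90ab1*, *Hspd1* and *Hspa5*, grouped as constitutive. They are 10 of 54532 genes in the table, and all 10 averaged 10 counts or more over the 8 libraries, the limit for testing. Their Ensembl identifiers, in the order just given, are ENSMUSG00000091971, ENSMUSG00000090877, ENSMUSG00000021270, ENSMUSG00000029657, ENSMUSG00000005483 and ENSMUSG00000004951, then ENSMUSG00000015656, ENSMUSG00000023944, ENSMUSG00000025980 and ENSMUSG00000026864. The libraries are RNAseq of FACS-sorted cells that carry membrane GFP (mG+), from female mice aged 8 months. All mice carried Tie2e-cre, which expresses Cre under a promoter used to mark endothelial cells (EC), and the mTmG reporter, which turns from membrane Tomato to GFP where Cre acts. The EC-*Tert*-KO (KO) mice were Tie2e-cre; TERTfl/fl; mTmG and the WT mice were Tie2e-cre; TERT+/+; mTmG. Regulatory elements of Tie2 can also act in some blood-forming cells. Cells came from subcutaneous adipose tissue of mice fed high-fat diet (SAT HFD), and from subcutaneous adipose tissue (SAT chow), gastrocnemius muscle (muscle) and visceral adipose tissue (VAT) of chow-fed mice. Each of these 4 combinations has 1 WT and 1 KO library, so a genotype difference within a pair has no replicate check, and the sources do not state whether a library pooled mice. The questions were how high each gene was by tissue and diet, whether KO differed from WT, and whether inducible and constitutive chaperones moved together.

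Chaperones bind unfolded proteins and help them fold. HSP70 proteins hold client proteins in cycles of ATP hydrolysis, HSP40 (DNAJ) proteins bring clients to them and start hydrolysis, and HSP110 proteins exchange the nucleotide, while HSP90 acts later on kinases, receptors and other clients. Heat and proteotoxic stress release the factor HSF1, which binds heat shock elements in promoters. *Hspa1a* and *Hspa1b* encode the same kind of stress-inducible HSP70 and are low in most resting cells, whereas *Hspa8* encodes the HSP70 that cells use at rest, *Hsp90ab1* the resting HSP90, *Hspd1* the mitochondrial chaperonin HSP60 and *Hspa5* BiP, the HSP70 of the endoplasmic reticulum (ER), which follows the unfolded protein response. EC line vessels and meet shear and temperature changes, and heat shock genes are among the genes that cell isolation is known to induce.

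The promoters of these genes differ in the elements they hold, so a few are shown here. RefSeq windows of GRCm38.p6 were found for 7 of the 10 genes, with none for *Hsp90aa1*, *Hspa8* and *Hsp90ab1*. In the 250 bases before the start, the heat shock element was searched on both strands as GAANNTTC or TTCNNGAA and the ER stress element as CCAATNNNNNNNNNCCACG. Of 32851 promoter windows, 6.69% hold the first form, 7.17% the second, 12.8% either and 0.113% the ER element. A heat shock element was found for 5 of the 7 genes, all but *Dnajb1* and *Hspa5*, and *Hspa5* alone held the ER element. A gene was counted when any of its windows held the element, whereas the percentages are of single windows, so the units differ. The following 2 runs are printed because their genes, *Hspa1a* and *Hspb1*, showed the patterns across tissues described further on. Each is the 250 bases 5′ of the start, 5′ to 3′, with the element in capitals. *Hspa1a* lies at chr17:34972157-34972406 on the minus strand and *Hspb1* at chr5:135887669-135887918 on the plus strand.
Hspa1a: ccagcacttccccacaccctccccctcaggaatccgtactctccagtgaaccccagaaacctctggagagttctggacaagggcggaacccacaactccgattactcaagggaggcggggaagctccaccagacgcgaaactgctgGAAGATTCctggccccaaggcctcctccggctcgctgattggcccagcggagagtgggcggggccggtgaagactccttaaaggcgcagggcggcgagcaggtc
Hspb1: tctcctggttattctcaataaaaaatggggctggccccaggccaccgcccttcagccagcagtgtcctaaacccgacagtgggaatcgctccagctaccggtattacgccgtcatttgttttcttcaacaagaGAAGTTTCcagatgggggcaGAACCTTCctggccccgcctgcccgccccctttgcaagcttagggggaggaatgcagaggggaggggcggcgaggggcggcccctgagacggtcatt

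The *Hspa1b* promoter, on the minus strand of the same chromosome, differs from that of *Hspa1a* at 3 of 250 bases, and its element starts at the same place, 104 bases before the start. The elements of *Hspb1* start 117 and 97 bases before its start. Shorter sites are shown for *Hsph1*, whose TTCNNGAA lies at chr5:149636356-149636375 (minus strand), for *Hspd1*, where 3 matches overlap and the one printed lies at chr1:55088058-55088077 (minus strand), and for the ER element of *Hspa5* at chr2:34772020-34772048 (plus strand). In GENCODE M21, the sites of *Hsph1* and *Hspa5* fall inside the gene's bounds, because the annotated gene starts further upstream than the RefSeq start. The *Hspd1* site also falls inside, because it lies before a RefSeq start downstream of the annotated one. The 250 bases before the most upstream RefSeq start of *Hspd1* held no element. A match is only a match of letters in these windows.
Hsph1: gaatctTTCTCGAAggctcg
Hspd1: cttccgGAAGGTTCtagaac
Hspa5: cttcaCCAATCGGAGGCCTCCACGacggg

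Library totals ran from 6214269 to 18855772 counts and 16034 to 24688 genes had at least 1 count. *Tert* counts were 114 in WT and 0 in KO for SAT HFD, 70 and 11 for SAT chow, and 24 and 7 for muscle, but 3 in the VAT library labelled WT and 9 in the one labelled KO, so the VAT libraries are named here by their labels. The summed CPM (counts relative to the library size scaled by TMM) of 12 endothelial markers was 401 to 412 in SAT HFD, 633 to 778 in SAT chow, 2441 to 2902 in muscle and 2041 to 2680 in VAT, with no marker at 0. Markers of other cells were also present: 8 macrophage markers summed to 409 to 706, 828 to 2060, 5198 to 5434 and 13304 to 13486 CPM in the same order, and 8 neutrophil markers to 26332 to 30084 CPM in muscle against 72.0 to 765 elsewhere, with *Ly6g* at 0 in both SAT HFD libraries. In that order, 5 B cell markers summed to 1024 to 1167, 1169 to 1720, 723 to 765 and 108 to 122 CPM. The 6 T cell markers summed to 1158 to 1311, 990 to 2407, 314 to 474 and 133 to 185 CPM. The 6 stromal markers summed to 1882 to 1971, 674 to 3134, 550 to 1207 and 878 to 2049 CPM. In SAT on either diet, the B cell, T cell and stromal sums each exceeded the endothelial sum of the same library. In the KO library from SAT chow, *Malat1* and *Neat1*, nuclear RNAs, summed to 6210 CPM, against 365 in its WT library. The WT library stood apart here, since the sum ran from 2340 to 5968 CPM in the libraries of the other conditions. In such bulk libraries, fewer cells of a type and less RNA per cell cannot be told apart.

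*Hspa1b* and *Hspa1a*, the genes of stress-inducible HSP70, varied by SAT diet and by tissue. *Hspa1b* lies at positions 34956436 to 34959238 of chromosome 17 (minus strand, GRCm38). Its CPM was 3174 in WT and 3674 in KO for SAT HFD, 701 and 444 for SAT chow, 199 and 229 in the VAT libraries labelled WT and KO, and 1932 and 3047 in muscle. *Hspa1a*, its neighbor on chromosome 17 (positions 34969190 to 34972156, minus strand, GRCm38; 2967 bases in 1 transcript), had 1529 and 1724, 263 and 220, 203 and 189, and 971 and 1489 CPM in the same order. Both genes were high in SAT HFD and in muscle, and low in SAT chow and in VAT, with no overlap between the libraries of neighboring conditions. The highest library exceeded the lowest 18.5-fold for *Hspa1b* and 9.13-fold for *Hspa1a*, a span larger than that of 68.6% and 60.9% of tested genes, and the span of *Hsph1*, described next, was 13.5-fold. Together they took 0.503% and 0.613% of all counts in WT and KO from SAT HFD, against 0.0382% and 0.0395% in VAT.

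*Hsph1*, the HSP110 that reloads HSP70 (chromosome 5, positions 149614287 to 149636376), ran in the same order, with CPM of 778 and 966 in SAT HFD, 146 and 273 in SAT chow, 71.3 and 78.5 in the VAT libraries labelled WT and KO, and 560 and 511 in muscle. *Dnajb1*, the HSP40 partner of inducible HSP70 (chromosome 8, positions 83608193 to 83612653), had 577 and 646, 353 and 204, 159 and 146, and 362 and 396. The 4 genes therefore shared 1 order without overlap between neighbors: SAT HFD, muscle, SAT chow, VAT. For *Dnajb1* the gap between muscle and SAT chow was narrow, 362 against 353. The gap between SAT HFD and muscle was also narrow for *Hspa1a*, 1529 against 1489, and for *Hspa1b*, 3174 against 3047. Of 16971 tested genes, 7 (0.0412%) had this order without overlap, and the other 3 were *Rnf40*, *Bsn* and *Ighv12-3*. The order was noticed in the data and then counted. Under DESeq2 size factors 10 genes had it and under library totals 14, with the same 4 genes and *Hspd1* among them in both cases.

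*Hsp90aa1*, the inducible cytosolic HSP90 (chromosome 12, positions 110690605 to 110702728), varied less than these. Its CPM was 1065 and 1295 in SAT HFD, 1135 and 782 in SAT chow, 736 and 702 in the VAT libraries labelled WT and KO, and 1503 and 1276 in muscle. It was lowest in VAT, while SAT HFD overlapped both muscle and SAT chow. *Hspb1*, the small heat shock protein HSP27 (chromosome 5, positions 135887919 to 135889563), had another pattern, with 43.8 and 22.6 CPM in SAT HFD, 31.5 and 34.5 in SAT chow, 103 and 106 in VAT, and 170 and 202 in muscle. It was high in muscle, intermediate in VAT and low in SAT on either diet, where the diets overlapped.

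The highest library exceeded the lowest between 1.97-fold (*Hsp90ab1*) and 3.56-fold (*Hspd1*) for the 4 constitutive genes, and between 2.14-fold (*Hsp90aa1*) and 18.5-fold for the 6 inducible genes, so that the groups overlapped in span. *Hspa8* (chromosome 9, positions 40800984 to 40810087) had 2616 and 3027 CPM in SAT HFD, 4398 and 2008 in SAT chow, 2782 and 2402 in the VAT libraries labelled WT and KO, and 4297 and 2306 in muscle, so that neighboring conditions overlapped throughout. *Hsp90ab1* (chromosome 17, positions 45567775 to 45573271) had 2196 and 2466, 3201 and 1877, 1678 and 1645, and 3248 and 2277 CPM, with only VAT apart from the rest. The span was 2.19-fold for *Hspa8*, larger than in 15.2% of tested genes, and that of *Hsp90ab1* was larger than in 10.2%.

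*Hspd1*, which shares a bidirectional promoter region with *Hspe1* on chromosome 1 (positions 55077835 to 55088243), had 263 and 349 CPM in SAT HFD, 258 and 182 in SAT chow, 98.1 and 115 in VAT, and 275 and 258 in muscle. VAT was lowest and the other neighbors overlapped. *Hspa5* (chromosome 2, positions 34771970 to 34777547) ran the other way, with 759 and 918, 1183 and 1153, 1784 and 1726, and 1552 and 1017 CPM in the same order. It was highest in VAT and lowest in SAT HFD, each without overlap, and muscle overlapped SAT chow.

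**Figure D1:**
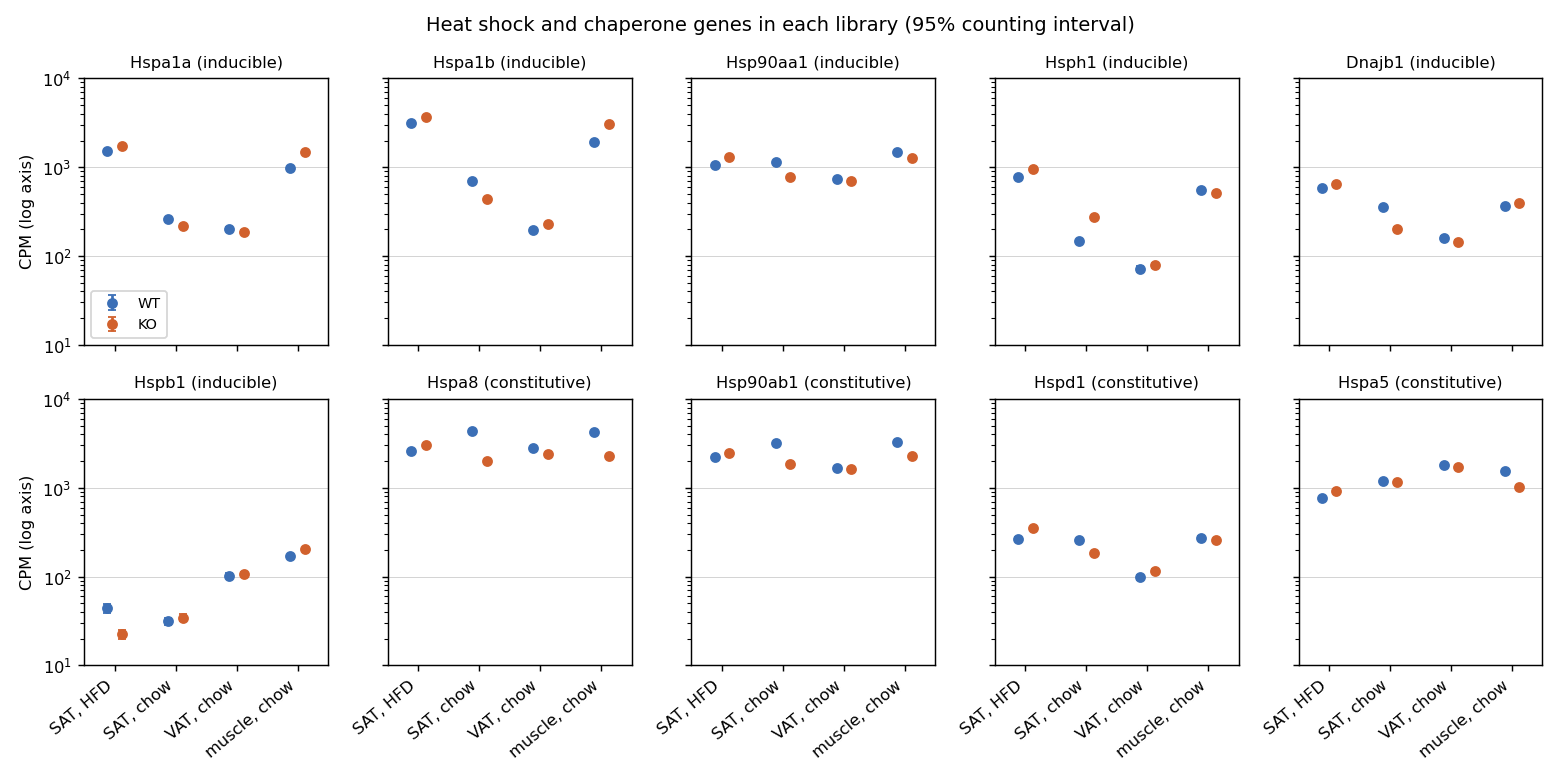
CPM (log axis) of each gene in each of the 8 libraries, WT in blue and KO in orange, by tissue and diet, with bars for the 95% counting interval (often smaller than the point). The *Hspa1b* points lie between 3174 and 3674 CPM in SAT HFD and between 199 and 229 in VAT, while those of *Hsp90ab1* stay between 1645 and 3248.

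Scaled by length (RPKM, the CPM divided by the exon length of the table in kilobases), *Hspa1b* ranked first among the 10 genes in both SAT HFD libraries, at 1132 and 1310, and in the muscle KO library, at 1087. *Hsp90ab1* ranked first in both SAT chow libraries (1067 and 626) and in the muscle WT library (1083), and *Hspa8* in both VAT libraries (647 and 558). The gene of highest level thus changed with tissue and diet. At the other end, *Hsph1* was lowest per length in both VAT libraries (9.82 and 10.8), both muscle libraries (77.1 and 70.3) and the SAT chow WT library (20.1), and *Hspb1* in both SAT HFD libraries (42.5 and 21.9) and the SAT chow KO library (33.5). *Hspa1b* in SAT HFD ranked 21 in WT and 15 in KO among all genes by level per length.

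Between the diets in SAT, the inducible HSP70 genes and their partners were several-fold higher on HFD, but no gene passed adjustment. SAT HFD was higher than SAT chow, without overlap, for 5 of the 10 genes (*Hspa1a*, *Hspa1b*, *Hsph1*, *Dnajb1* and *Hspd1*), against 8.41% of tested genes, and *Hspa5* was lower, as were 22.7%. By the quasi-likelihood test of edgeR, adjusted after Benjamini and Hochberg, 0 of 10 genes and 0.0% of all 16971 tested genes had an adjusted p under 0.05. At an unadjusted p under 0.05, 4 of 10 did, against 7.98% of all genes in either direction. All 4 were higher on HFD, whereas of all genes at that limit 93 were higher and 1261 lower. The log2 fold change was 2.74 (SE 0.39, adjusted p = 0.150) for *Hspa1a*, 2.56 (SE 0.45, adjusted p = 0.189) for *Hspa1b*, 2.09 (SE 0.37, adjusted p = 0.189) for *Hsph1* and 1.16 (SE 0.36, adjusted p = 0.583) for *Dnajb1*. The remaining 6 genes lay between −0.47 (*Hspa5*) and 0.48 (*Hspd1*). The median over all tested genes was −0.24, and relative to it *Hspa1a* was 2.98 and *Hspa1b* 2.80.

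DESeq2's Wald test placed the same 4 genes under 0.05, with adjusted p from 7.72e-15 (*Hspa1a*) to 0.0131 (*Dnajb1*), and called 246 genes in all. Without the KO library from SAT chow, edgeR called 3 of the 10 genes, *Hspa1a* (2.52, adjusted p = 0.0434), *Hspa1b* (2.12, 0.0467) and *Hsph1* (2.53, 0.0401), and 308 genes in all. The endothelial marker sum was higher in SAT chow than in SAT HFD, and its part in these values was not tested.

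Between muscle and VAT, the HSP70 genes and *Hsph1* were higher in muscle. Muscle was higher without overlap for 8 of 10 genes, against 31.7% of tested genes, and *Hspa5* was lower, as were 30.0%. *Hspa1b* rose by 3.53 on the log2 scale in muscle over VAT (SE 0.47, adjusted p = 0.0125 by edgeR), *Hsph1* by 2.85 (SE 0.38, adjusted p = 0.0129) and *Hspa1a* by 2.64 (SE 0.39, adjusted p = 0.0181). These 3 of 10 genes stand beside 1.93% of all tested genes called in this comparison and 0.884% called higher. *Hspd1* (1.32) and *Dnajb1* (1.32) did not pass by edgeR (adjusted p = 0.104 and 0.130), nor did *Hsp90aa1* (0.95, adjusted p = 0.325), whereas DESeq2 placed all 3 under 0.05. The constitutive *Hspa8* (0.29), *Hsp90ab1* (0.71) and *Hspa5* (−0.46) did not pass either. The calls rest on few libraries. Fits without 1 VAT or muscle library lost them, except that of *Hspa1b* without the muscle WT library. Those fits also called fewer genes over the whole table. With any 1 library left out, the difference was 3.11 to 3.87 for *Hspa1b*, 2.54 to 3.10 for *Hsph1* and 2.26 to 2.96 for *Hspa1a*.

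Muscle over SAT chow was higher without overlap for all 6 inducible genes and for none of the 4 constitutive genes, where 21.2% of tested genes were higher and 22.5% lower without overlap. By edgeR, *Hspb1* rose by 2.50 (SE 0.38, adjusted p = 0.0288) and *Hspa1a* by 2.33 (SE 0.39, adjusted p = 0.0353), 2 of 10 genes beside 1.26% of all tested genes called and 1.11% called higher. *Hspa1b* (2.10, SE 0.45) and *Hsph1* (1.41, SE 0.37) had adjusted p of 0.0775 and 0.137. The constitutive genes lay between 0.063 (*Hspa8*) and 0.28 (*Hspd1*). When *Hspa1a* and *Hspa1b* were summed as 1 gene the difference was 2.17 with an adjusted p of 0.0675, and *Hspb1* alone was called. *Hspa1a* kept its call without either SAT chow library and lost it without any 1 of the other 6 (adjusted p from 0.0615 to 0.371), while *Hspb1* lost its call without either muscle library, the SAT chow WT library or the VAT library labelled WT (0.0506 to 0.246).

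VAT over SAT chow was lower without overlap for 7 of 10 genes and higher for *Hspb1* and *Hspa5*, with 28.1% of tested genes lower and 27.8% higher without overlap. *Hspb1* rose by 1.66 (SE 0.37, adjusted p = 0.0435 by edgeR), 1 of 10 genes beside 5.05% of all tested genes called and 3.31% called higher. That call ended with library totals (adjusted p = 0.0546) and without the SAT chow WT library, either VAT library or either muscle library (0.0663 to 0.234). *Hsph1* (−1.44, SE 0.37), *Hspa1b* (−1.44, SE 0.44) and *Hspd1* (−1.05, SE 0.33) had adjusted p of 0.0682, 0.116 and 0.129 by edgeR. Without the SAT chow KO library these 3 differences were −1.015, −1.89 and −1.36. Beside these tissue differences, macrophage markers were highest in VAT, neutrophil markers in muscle and B and T cell markers in SAT, as given above. Their part in the values was not tested. All 4 comparisons share libraries and are not independent of each other.

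**Figure D2:**
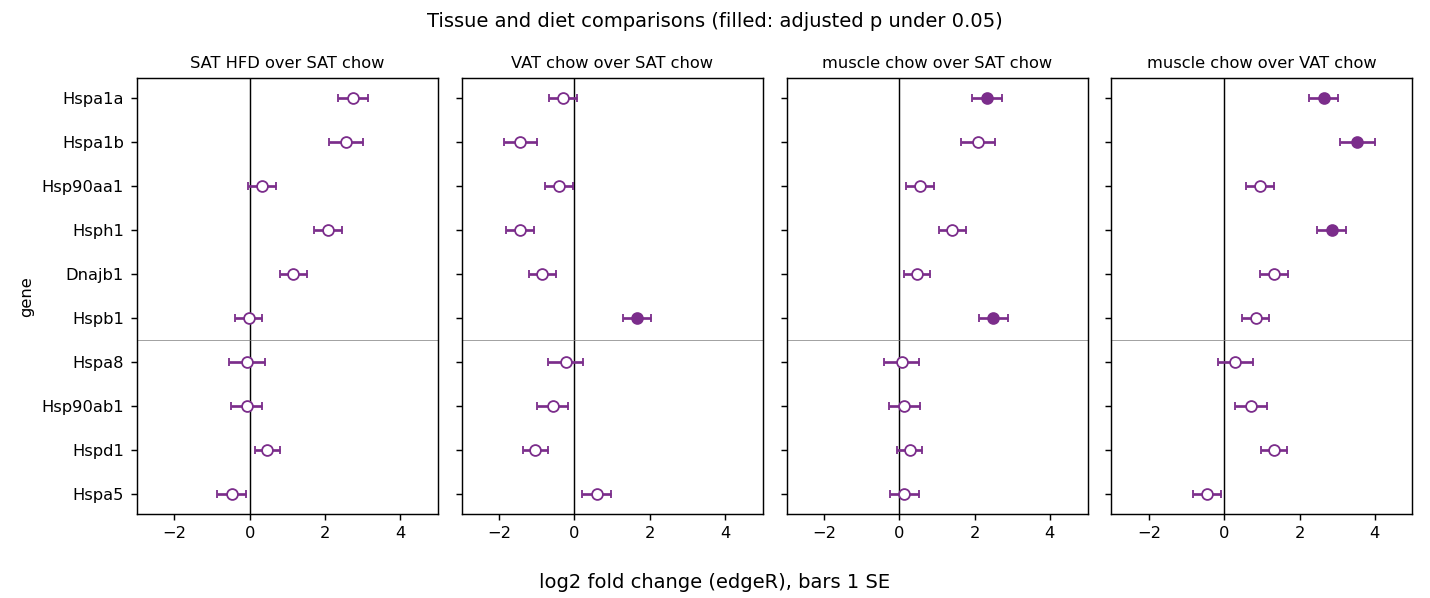
edgeR log2 fold change of each gene in 4 comparisons of tissue and diet (2 libraries, 1 per genotype, on each side), with bars of 1 SE; filled points have an adjusted p under 0.05 and the grey line separates inducible genes (above) from constitutive genes. *Hspa1a* lies at 2.74, −0.31, 2.33 and 2.64 from left to right, whereas *Hspa8* stays between −0.23 and 0.29.

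KO libraries differed from WT libraries by less than 2-fold for nearly all of these genes, and in directions that depended on the pair. Beyond 2-fold means here, for these and all other genes, that the whole counting interval lies past a 2-fold ratio. The 1 exception was *Hspa8* in SAT chow, with 72744 counts in WT and 33314 in KO, a log2 ratio of KO to WT CPM of −1.13 (95% counting interval −1.15 to −1.11). It is 1 of 10 genes beyond 2-fold, where 11.7% of genes were lower and 19.0% higher in KO beyond 2-fold in that pair. With DESeq2 size factors the ratio was −1.02 and none of the 10 genes was beyond 2-fold, and with library totals *Hspa8* was −0.90 and *Hsph1* (1.13, 1.06 to 1.20) was beyond 2-fold in its place. Intervals here cover counting error only, since PCR reads are not independent molecules and each pair holds 1 library per genotype.

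In SAT HFD, 9 of the 10 genes had a counting interval above 0 (38.3% of all genes did, and 34.3% had one below), and none lay beyond 2-fold (12.7% higher, 11.1% lower). The differences were small, from 0.16 (*Dnajb1*) to 0.41 (*Hspd1*, 0.33 to 0.49). *Hspb1* was the exception, with 291 counts in WT and 285 in KO, a log2 ratio of −0.96 (−1.20 to −0.72).

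In SAT chow, 8 of the 10 intervals lay below 0, beside 40.3% of all genes, and 1 above, beside 40.9%. After *Hspa8*, the lowest were *Dnajb1* at −0.79 (−0.85 to −0.73), *Hsp90ab1* at −0.77 (−0.79 to −0.75) and *Hspa1b* at −0.66 (−0.70 to −0.62). *Hsph1* alone was higher in KO, with 2419 counts in WT and 4523 in KO, a log2 ratio of 0.90 (0.83 to 0.97), and the interval of *Hspb1* spanned 0. The scaling decided some of these sides: with library totals *Hspb1* (0.37) and *Hspa5* (0.20) also lay above 0 and the interval of *Hspa1a* (−0.024) spanned 0. *Hsph1* and its partner *Hspa1b* therefore had opposite signs in these libraries. This is the pair in which *Malat1* went from 4827 to 96834 counts (log2 4.32). The stromal marker sum (6 genes, none at 0) went from 674 to 3134 CPM and the T cell marker sum from 2407 to 990. For *Malat1* the WT library stood apart, at 292 CPM against 2149 to 5836 in all other libraries. The part of these differences in the values was not tested.

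In muscle, the Hspa1 genes were higher in KO while *Hspa8*, *Hspa5* and *Hsp90ab1* were lower. *Hspa1b* went from 31869 counts in WT to 42041 in KO, a log2 ratio of 0.66 (0.64 to 0.68), and *Hspa1a* was 0.62 (0.59 to 0.65). *Hspa8* went from 70890 to 31817 counts, −0.90 (−0.92 to −0.88), *Hspa5* was −0.61 (−0.64 to −0.58) and *Hsp90ab1* −0.51 (−0.53 to −0.49). In all, 4 of the 10 intervals lay above 0 and 6 below (26.7% and 29.4% of all genes), and none was beyond 2-fold (2.75% and 2.05%). The small ratios of *Hspd1* (−0.096) and *Hsph1* (−0.13) turned to 0.074 and 0.035 with library totals. In VAT the library labelled KO differed from that labelled WT by at most 0.23 (*Hspd1*, 0.11 to 0.35) in either direction, with 2 intervals above 0 and 5 below (26.6% and 24.7% of all genes), and none of the 10 genes lay beyond 2-fold (2.4% higher, 2.09% lower).

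**Figure D3:**
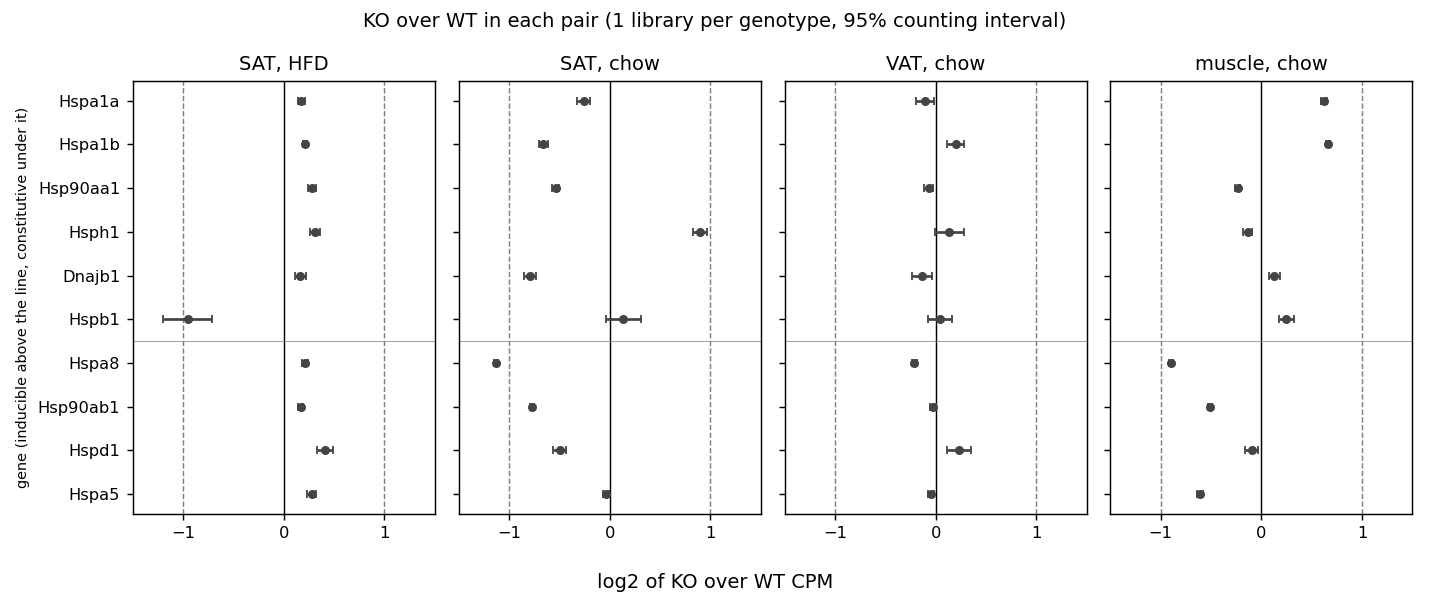
Log2 ratio of KO to WT CPM for each gene in each pair (1 library per genotype), with bars for the 95% counting interval and dashed lines at 2-fold; inducible genes are above the grey line. Only *Hspa8* in SAT chow, at −1.13, lies beyond 2-fold, and the VAT points lie between −0.21 and 0.23, by the label KO over WT.

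Across the 4 pairs, the test of genotype called none of these genes. Its replicates are the 4 combinations of tissue and diet, so a KO effect that differs between pairs counts as spread. The test therefore cannot tell the absence of an effect from effects specific to a tissue or diet. Whether any mouse gave cells to several chow libraries is also not stated, so the number of independent animals is unknown. With tissue and diet as the block, edgeR placed 0 of 10 genes under an adjusted p of 0.05, where 0.00589% of all genes were called, and 0 of 10 under an unadjusted p of 0.05, where 1.64% of all genes were. DESeq2 also called 0 of 10. The largest difference was that of *Hspa8*, −0.51 (SE 0.33, unadjusted p = 0.165 by edgeR), and the next that of *Hsph1*, 0.30 (SE 0.26, unadjusted p = 0.272). The other 8 genes lay between −0.29 (*Hsp90ab1*) and 0.11 (*Hspa1a* and *Hspa1b*). With the VAT pair left out, whose *Tert* counts go against the labels, *Hspa8* was −0.60 and *Hsph1* 0.37. None of the 10 genes was called in that fit, but it called 0 genes in the whole table. It therefore does not show whether the labels matter.

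The inducible and constitutive genes were set against each other by the mean log2 CPM of the 6 minus that of the 4, a difference that does not depend on library scaling and was not tested. It was −0.60 in WT and −0.83 in KO for SAT HFD, −2.44 and −2.04 for SAT chow, −2.40 and −2.37 in the VAT libraries labelled WT and KO, and −1.20 and −0.46 in muscle. SAT HFD and muscle lay above SAT chow and VAT in all their libraries. In muscle over SAT chow *Hspb1* had the largest edgeR difference of the 6 inducible genes, at 2.50, whereas in SAT HFD over SAT chow it was −0.02. The KO minus WT difference was −0.23 in SAT HFD, 0.41 in SAT chow, 0.03 in VAT by its labels and 0.74 in muscle. In SAT HFD it rests on *Hspb1*, since it was −0.037 without that gene and 0.075 with medians in place of means. In SAT chow it was 0.19 without *Hsph1*. In muscle it stayed between 0.62 and 0.89 whichever gene was left out, which is no check on the 1 library per genotype. With TMM, the constitutive mean there was 10.61 in WT and 10.08 in KO, and the inducible mean 9.41 and 9.62.

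**Figure D4:**
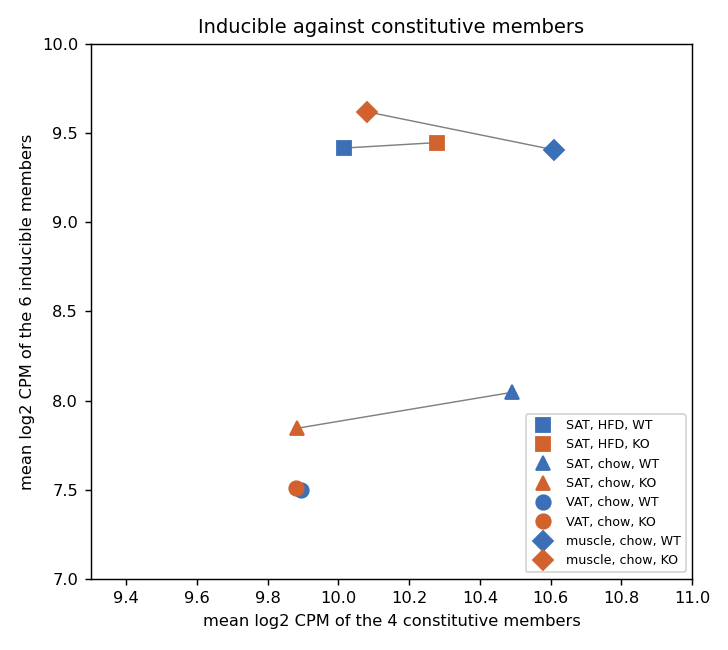
Mean log2 CPM of the 6 inducible genes (vertical) against that of the 4 constitutive genes (horizontal) in each library, WT in blue and KO in orange, with a line joining the libraries of a pair; both axes start above 0. SAT HFD and muscle lie between 9.41 and 9.62 on the vertical axis, and SAT chow and VAT between 7.50 and 8.05.

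As a single ratio, the counts of *Hspa1a* and *Hspa1b* together divided by those of *Hspa8* were 1.80 in WT and 1.78 in KO from SAT HFD, 0.219 and 0.331 from SAT chow, 0.144 and 0.174 in the VAT libraries labelled WT and KO, and 0.675 and 1.97 in muscle. Inducible HSP70 counts thus exceeded those of resting HSP70 in both SAT HFD libraries and in the muscle KO library. These counts are not scaled by length, and *Hspa8* has 4301 bases against 2967 for *Hspa1a* and 2803 for *Hspa1b*. By RPKM, muscle WT had 327 for *Hspa1a* and 689 for *Hspa1b* beside 999 for *Hspa8*, so in that library the comparison depends on length. The counts of *Hsp90aa1* divided by those of *Hsp90ab1* ranged less, from 0.355 (SAT chow, WT) to 0.560 (muscle, KO).

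The division of counts between *Hspa1a* and *Hspa1b* is uncertain, because their transcripts share sequence: 47.1% of the 100-base windows of the *Hspa1a* transcript also occur in that of *Hspa1b*, whereas *Hspa1a* shares none with *Hspa8*, nor *Hsp90aa1* with *Hsp90ab1*. How reads that fit both were counted is not stated. The ratio of *Hspa1b* to *Hspa1a* counts was 2.08 and 2.13 in SAT HFD, 2.66 and 2.02 in SAT chow and 1.99 and 2.05 in muscle, but 0.981 and 1.21 in VAT, where both genes were lowest. VAT therefore stood apart in this ratio from the other 6 libraries. *Hspa1a* also overlaps the antisense gene *Gm20481*, listed at 0 in all libraries, *Hspd1* overlaps *Hspe1* and *Hspa8* overlaps 3 small nucleolar RNA genes.

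**Figure D5:**
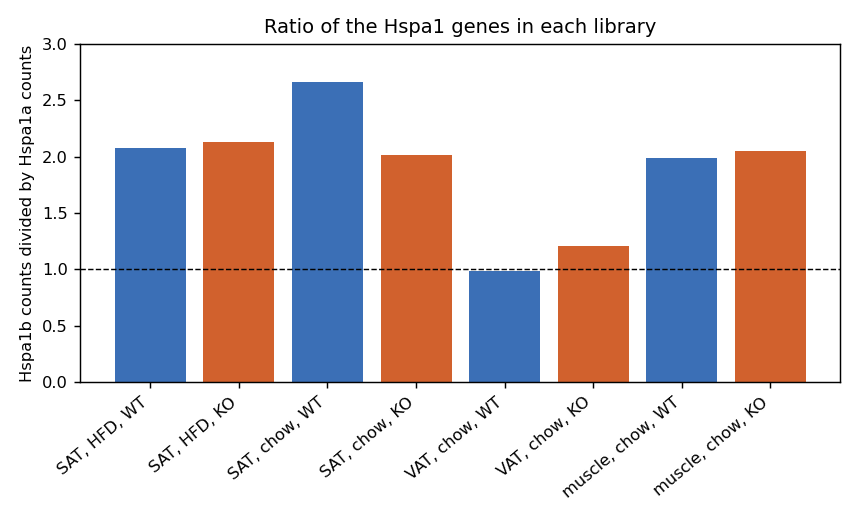
Counts of *Hspa1b* divided by those of *Hspa1a* in each library (bars start at 0, dashed line at equal counts), WT in blue and KO in orange. The VAT bars stand at 0.981 and 1.21 and the other 6 between 1.99 and 2.66.

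Around these 10 genes, 11 lists of 107 further genes were read, chosen by function. They cover the rest of the chaperone network and, as lists of their own, 12 immediate early genes and 2 nuclear RNAs, which are not chaperones. None of these genes was called by edgeR across the pairs or between diets in SAT, where 0.00589% and 0.0% of all genes were. In these comparisons 1 and 3 of them had an unadjusted p under 0.05, beside 1.64% and 7.98% of all genes. Between tissues, *Hspa12b*, an HSP70 relative that is enriched in EC, was higher than in SAT chow both in VAT (2.14, SE 0.45, adjusted p = 0.0378) and in muscle (2.60, SE 0.46, adjusted p = 0.0443), as was the endothelial marker sum. *Hspe1*, which encodes the HSP10 partner of HSP60, was lower in VAT than in SAT chow (−1.92, SE 0.40, adjusted p = 0.0355), and all 9 chaperonin genes had a value between −1.92 and −0.71 there, with a median of −0.80 beside −0.083 over all genes. Of 12 immediate early genes, which respond to cell isolation and to many stimuli, *Atf3* (2.95, adjusted p = 0.0441) and *Ier3* (2.21, adjusted p = 0.0160) were higher in VAT than in SAT chow, and *Egr2* was lower in muscle than in VAT (−2.28, adjusted p = 0.0469). The summed CPM of these 12 genes was 13511 to 15211 in VAT, against 5480 to 10231 in SAT chow, 7630 to 7804 in SAT HFD and 7127 to 7493 in muscle. VAT was thus highest in this sum and lowest in *Hspa1a*, *Hspa1b*, *Hsph1* and *Dnajb1*. Most immediate early genes had their highest library in VAT, but *Jun*, *Ier2* and *Nr4a1* did not.

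*Hsf1*, the gene of the heat shock factor, ran in another order, and its CPM was 79.2 and 79.8 in SAT HFD, 72.2 and 83.2 in SAT chow, 61.5 and 61.7 in VAT, and 55.6 and 48.8 in muscle. It was lowest in muscle, where *Hspa1b* was high. None of the 4 tested genes of the HSF list was called in any edgeR comparison.

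Within pairs, 14 of 102 tested genes of these lists were higher in KO beyond 2-fold in SAT chow (13.7%, beside 19.0% of all genes) and 10 were lower (9.80%, beside 11.7%), so the shares of all lists together were no larger than those of all genes. The 14 include 4 immediate early genes and 2 nuclear RNAs, and the 10 include none of either, so these are not shares of chaperone genes alone. There, 5 of 9 chaperonin genes were lower in KO beyond 2-fold (11.7% of all genes), among them *Hspe1* (3126 counts in WT, 1219 in KO, −1.36), *Cct7* (−1.23) and *Cct5* (−1.21), the latter 2 subunits of the cytosolic chaperonin that folds actin and tubulin. Also lower were *Ahsa1* (−1.17), the activator of HSP90, and *Hspbp1* (−1.22), an HSP70 exchange factor. All these calls use TMM. The other scalings raise every ratio of this pair, as that of *Hspa8* moved from −1.13 to −1.02 with DESeq2 size factors and −0.90 with library totals. Calls of lower genes close to 2-fold, such as *Ahsa1*, *Hspbp1*, *Cct7* and *Cct5*, therefore depend on the scaling. Higher in KO were *Bag3*, an HSP70 partner in selective autophagy (238 counts in WT, 1098 in KO, 2.20), and its partner *Hspb8* (16 and 346 counts, 4.39, interval 3.71 to 5.25). The HSP110 relative *Hspa4l* (1.42) and the HSP40 gene *Dnajb4* (1.17) were higher too, and *Unc45b*, a myosin chaperone, was 1.77. *Hspb9* had 1 and 20 counts, a log2 ratio of 3.77 (1.67 to 9.69). So *Hsph1*, *Hspa4l*, *Bag3* and *Hspb8* were higher in the KO library while the chaperonins, *Hspa8* and *Hsp90ab1* were lower. The WT library of this pair was the lowest of all for *Bag3* (14.4 CPM, 64.8 to 127 elsewhere). It was the highest for *Cct5* (420 CPM, 165 to 226 elsewhere). For *Hspe1* and *Hsph1* another library lay further out, SAT HFD WT at 248 CPM and the VAT library labelled WT at 71.3.

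The ER and mitochondrial lists differed in that pair as well. The ER stress sensors *Eif2ak3* (1.80) and *Ern1* (1.76) were higher in KO and *Sdf2l1*, an ER chaperone partner, was lower (−1.47), while *Hspa5* stood at −0.037 (−0.066 to −0.0081), or at 0.076 with DESeq2 size factors and 0.20 with library totals. Of the mitochondrial protease and import genes, *Clpp* (−1.34) and *Grpel1* (−1.32) were lower, and these calls also depend on the scaling. The immediate early genes *Fosb* (2.96), *Nr4a1* (2.66) and *Atf3* (2.34) were higher, beside the nuclear RNA *Malat1* given above and *Neat1* (2.35). For *Fosb*, *Nr4a1* and *Atf3* the WT library was the lowest of all libraries, at 208, 290 and 46.5 CPM.

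In SAT HFD, 1 of 99 tested genes of these lists was higher and 1 lower beyond 2-fold by the whole interval. That is 1.01% each way, less than the 12.7% higher and 11.1% lower of all genes. There, *Bag2*, an HSP70 exchange factor, had 44 counts in WT and 0 in KO, at least 27.9-fold lower against a floor of 3 counts per library, and *Cryab*, a small heat shock protein, had 14 and 139 (2.36, 1.59 to 3.29). In VAT and in muscle no gene of these lists had its whole interval beyond 2-fold. Of all genes, 2.4% were higher and 2.09% lower in VAT, and 2.75% and 2.05% in muscle. Single ratios of low genes passed 2-fold, up to 1.09 in VAT and 2.01 in muscle on the log2 scale. In muscle, 15 of 16 ER genes had an interval below 0 in KO (29.4% of all genes), as *Hspa5* had. Their median was −0.28 beside −0.0053 over all genes. These values use TMM, and the other scalings raise every ratio of this pair. The ratio of *Hspa1a* moved from 0.62 to 0.66 with DESeq2 size factors and to 0.79 with library totals. The count and both medians therefore depend on the scaling.

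To see which genes ran most like the 6 inducible genes, each of the 12358 genes that averaged 50 counts or more was correlated with their mean over the 8 libraries. The libraries share tissue and diet in pairs, so the values are descriptions. The 8 most alike were *Runx2* (Pearson r = 0.963), *Nbeal2* (0.963), *Prickle3* (0.934), *Dnaja1* (0.928), *Ss18l2*, *Ccnf*, *Phf19* and *Dsn1* (0.916 to 0.913), and 9 genes reached 0.9. *Dnaja1*, an HSP40 that works with HSP70, was the 1 chaperone gene among these 8, with 672 and 641 CPM in SAT HFD, 364 and 466 in SAT chow, 335 and 379 in the VAT libraries labelled WT and KO, and 722 and 594 in muscle. Among the 10 genes themselves, r with that mean was 0.983 for *Hspa1a* and 0.10 for *Hspb1*, both of which are part of it, and −0.660 for *Hspa5*, which is not.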

How the data were processed

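The authors deposited whole-number counts per Ensembl gene, with no normalization. The submitters' processing notes name HISAT2 2.0.5 and GRCm38 (mm10); the counting program and the use of strand are not given in the sources used here. The labels give a column kit for RNA and a SMARTER library kit, the paper Trizol, and adipose tissue was digested with collagenase and dispase at 37°C before sorting. Table lengths equal GENCODE M21 exon unions for all 10 genes. Counts were scaled by TMM (edgeR 4.0.16, factors 0.877 to 1.14). edgeR's quasi-likelihood test (robust) was fitted to all 8 libraries with tissue-diet and genotype terms, leaving 3 residual degrees of freedom, on the 16971 genes that averaged 10 counts or more, with Benjamini-Hochberg adjustment at 0.05. A WT and a KO library stand on each side of a tissue comparison, and p-values measure the spread between these libraries only. Ratios within pairs used a prior count of 0.5 and exact conditional binomial (Clopper-Pearson) 95% intervals. Levels have exact Poisson intervals. Procedures were tested on simulated data.

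The tissue and diet of the labels form the pairs. Deviations of paired libraries from the genotype means correlated at 0.253 (SAT HFD), 0.057 (SAT chow), 0.560 (VAT) and 0.516 (muscle), against −0.333 to 0.174 for libraries not paired.

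The genes, lists and tests were chosen with earlier results of these data known. Named from other lists were, per comparison, the called genes of largest change, at most 3 in each direction (interval beyond 2-fold in a pair, adjusted p under 0.05 in edgeR), and the 8 genes most like the inducible mean. Alternatives were DESeq2 1.42.0 (size factors and Wald test), library totals, other count filters, a non-robust fit, a prior count of 5, *Hspa1a* and *Hspa1b* summed, no block, and leaving out each pair, library or gene. Promoter sequences come from RefSeq windows of GRCm38.p6.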

Additional observations from a re-analysis of the deposited data

Results flagged for a closer look

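For each of the 10 genes, the KO over WT ratio lay on opposite sides of 0 in some pair and another, by counting intervals. The difference between pairs was not tested, since each pair has 1 library per genotype, and counting intervals are narrow for genes of this depth. Against SAT chow, SAT HFD was higher for *Hsp90aa1* (log2 ratio 0.28 against −0.54), *Dnajb1* (0.16 against −0.79), *Hspa8* (0.21 against −1.13), *Hsp90ab1* (0.17 against −0.77) and *Hspd1* (0.41 against −0.50). Muscle was above SAT chow for *Hspa1a* (0.62 against −0.26) and *Hspa1b* (0.66 against −0.66), while *Hsph1* was above in SAT chow (0.90 against −0.13 in muscle, the latter 0.035 with library totals). *Hspb1* was 0.25 in muscle and −0.96 in SAT HFD, and *Hspa5* was 0.28 in SAT HFD and −0.61 in muscle.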

How the results depend on the processing

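No member was called for KO over WT across the pairs under any setting. Without the replicate block, 0 genes were called in place of 1, DESeq2's Wald test called 19 and a fit on all genes with at least 1 count 41, and leaving out a pair gave 0 to 2. For SAT HFD over SAT chow, DESeq2 called 246 genes and 4 members and the unfiltered fit 289 and 3, against 0 and 0, and leaving out a library gave 0 to 308 genes and 0 to 3 members. For VAT over SAT chow, DESeq2 called 2280 genes and 4 members, the unfiltered fit 2116 and 3, library totals 0 members, and leaving out a library 93 to 3449 genes and 0 to 5 members. For muscle over SAT chow these were 1053 and 4, 971 and 4, 1 member with the Hspa1 genes summed, and 37 to 1761 and 0 to 4. For muscle over VAT they were 1253 and 6, 1166 and 5, and 41 to 1207 and 0 to 5. The cause was not tested.

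Within pairs, a mean of at least 50 counts gave 978 genes beyond 2-fold in SAT HFD, 210 in VAT and 303 in muscle, the unfiltered set 1480 in VAT and 1482 in muscle, and DESeq2 size factors 0 members in SAT chow, where library totals gave *Hsph1* in place of *Hspa8*. Inducible minus constitutive, KO minus WT, with medians was 0.075 (SAT HFD, reversed), 0.090 (SAT chow), −0.064 (VAT) and 0.69 (muscle), or 0.66 in muscle with the Hspa1 genes summed, and leaving out a gene gave −0.29 to −0.037, 0.19 to 0.60, −0.038 to 0.11 and 0.62 to 0.89.

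Directions that flipped were all of uncalled genes. Across the pairs these were *Hspb1* without the block (0.069) and *Hspa5* with library totals (0.016), and, leaving out a pair, *Hspa1a* (−0.081 to 0.24), *Hspa1b* (−0.099 to 0.36), *Dnajb1* (−0.27 to 0.062), *Hspb1* (−0.27 to 0.14), *Hspd1* (−0.12 to 0.19) and *Hspa5* (−0.23 to 0.045). For SAT HFD over chow, DESeq2 size factors, library totals and DESeq2's test gave *Hspb1* 0.13, 0.19 and 0.13, *Hspa8* 0.091, 0.15 and 0.090, and *Hsp90ab1* 0.081, 0.14 and 0.079, and leaving out a library gave −0.51 to 0.46, −0.60 to 0.50 and −0.41 to 0.33. The median of all genes moved there from −0.24 to −0.085 and −0.026 with the scalings. Leaving out a library gave *Hspa1a* −0.53 to 0.011 and *Hspa8* −0.61 to 0.27 for VAT over SAT chow, and for muscle over SAT chow *Hspa8* −0.30 to 0.59, *Hsp90ab1* −0.16 to 0.55, *Hspd1* −0.032 to 0.71 and *Hspa5* −0.23 to 0.44. Where leaving out a library left 1 of its condition, that library was assumed to vary like the others. With 1 library per genotype, tissue and diet, depth is not the limit for these genes, whose counts are 285 or more in every library.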
